A study of Mus musculus with 31 samples.

Results

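The response of wild-type dendritic cells to bacterial lipopolysaccharide (LPS) was read from 6 RNA-seq libraries, 3 of untreated (naive) cultures and 3 of cultures given LPS for 8 h. They were chosen by their labels among the 31 libraries of the series, of which 12 are from dendritic cells, and every gene counted in them was considered. All 6 libraries come from C57BL/6 mice of wildtype genotype. Per the labels' protocols, marrow was taken from femurs and tibiae of male mice aged 8 to 16 weeks and grown for 10 days with the supernatant of an X63 cell line that secretes GM-CSF, a growth factor that drives myeloid progenitors towards dendritic cells. Cells were harvested on day 10 and seeded without serum, and the LPS group received LPS on day 11 for 8 h. The LPS dose is not given in the sources used here. The naive libraries carry the replicate numbers 1, 2 and 4 and the LPS libraries 1, 2 and 3. The labels do not say whether replicates came from separate animals, so p-values measure only the spread between these libraries, which may be technical.

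LPS is a component of the outer membrane of Gram-negative bacteria. It is bound by CD14 and by the complex of Toll-like receptor 4 with MD-2, which signals through the adaptors MyD88 and TRIF. The MyD88 branch leads to NF-kB and AP-1 and to inflammatory cytokines, and the TRIF branch leads to IRF3 and type I interferon, which acts back on the cells through its receptor and switches on antiviral genes. In dendritic cells this signal starts maturation, in which a cell that takes up antigen becomes one that migrates to lymph nodes and presents antigen to T cells.

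Levels are given as CPM, read counts relative to the library size after scaling for library composition, first for naive libraries 1, 2 and 4 and then for LPS libraries 1, 2 and 3. Since CPM is not divided by gene length, levels are compared between groups and not between genes. A gene was called higher or lower where the adjusted p of edgeR's quasi-likelihood test was under 0.05. Numbers in parentheses after a gene, and amounts by which a gene rose or fell, are log2 fold changes of LPS over naive unless another unit is given. In bulk cultures, fewer cells of a type and less RNA per cell cannot be told apart.

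Total counts were 53585638 to 62282841 in naive and 38998746 to 50809304 in LPS libraries, and the groups lay 0.524 to 0.557 apart (median absolute log2 difference between 2 libraries) against 0.194 to 0.198 within naive and 0.238 to 0.277 within LPS libraries. Dendritic cell markers were detected in both groups: the summed level of 10 of them was 10300 to 12000 CPM in naive and 15700 to 18300 CPM in LPS libraries. Of these 7 were called higher and 1 lower, and Cd209a was the single one under 1 CPM in both groups. Without Cd74 the other 9 summed to 2330 to 2740 and 4840 to 5630 CPM. Zbtb46, a transcription factor of conventional dendritic cells, measured 24.4, 28.6 and 24.8 CPM and then 61.7, 59.9 and 46.1 CPM with LPS. The 8 macrophage markers summed to 1200 to 1390 CPM in naive and 1560 to 2270 CPM in LPS libraries, with 3 called higher (Adgre1, Fcgr1 and Cd14) and 3 lower, Csf1r and Mrc1 among them. Without Cd14 the other 7 summed to 1160 to 1340 CPM in naive and 1140 to 1560 CPM in LPS libraries. Csf1r was not called when LPS library 1 or 2 or naive library 1 or 4 was left out, at adjusted p = 0.0717 to 0.101 of the same edgeR test. The 6 monocyte markers summed to 140 to 186 and 59.7 to 90.5 CPM, with 2 called higher and 2 lower. Without Ccr2 the other 5 summed to 49.2 to 52.3 and 58.2 to 88.2 CPM. The 8 mast cell and basophil markers summed to 54.4 to 60.1 and 171 to 193 CPM, with 1 of 6 tested higher (Hdc) and 1 lower (Kit), and without Hdc the other 7 summed to 52.9 to 58.2 and 22.8 to 30.3 CPM. The 6 plasmacytoid dendritic cell markers summed to 213 to 230 and 597 to 697 CPM, with 3 of 5 tested higher and 1 lower. In each group 3 of the 6 were under 1 CPM. Without Bst2, which is also in the antiviral list below, the other 5 summed to 67.7 to 84.7 and 164 to 228 CPM. Eosinophil markers summed to 49 to 55.7 and 11.6 to 15.5 CPM, and T cell markers to 2.25 to 3.17 and 9.16 to 11.6 CPM. Neutrophil markers summed to 23.9 to 34.3 and 22.2 to 34.6 CPM, and stromal markers to 27.9 to 88 and 38.5 to 71.1 CPM. Megakaryocyte markers summed to 49.1 to 59.5 and 68.1 to 129 CPM with none of 3 tested called, and endothelial markers to 16.9 to 22.9 and 38.7 to 49.1 CPM with 1 of 3 tested called, higher. In each of the eosinophil, T cell, megakaryocyte and endothelial lists 1 member held most of the difference: without it the sums were at most 1.64 and 4.31, 2.75 and 2.58, 7.77 and 7.52, and 19.6 and 27.1 CPM. B cell, NK cell and erythroid markers summed to at most 4.39 CPM in any library. The part of these other cells in the results below was not tested.

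Of 15936 genes tested, 6109 (38.3%) were called, 3121 higher (19.6%) and 2988 lower (18.8%) with LPS. At 2-fold or more, 1376 (8.63%) were higher and 1553 (9.75%) lower, and 151 genes were higher and 132 lower at 16-fold or more. In 8460 genes (53.1%) the 3 naive and the 3 LPS libraries did not overlap. The direction of small changes depends on the scaling: without factors for library composition the median log2 fold change of all genes moved from -0.04 to -0.43, and the share of called genes that were higher moved from 51.1% to 21.6%. Genes at least 2-fold higher took 10.5 to 10.9% of the counts in naive and 27.7 to 28.4% in LPS libraries, and genes at least 2-fold lower took 6.14 to 6.37% and 1.57 to 1.83%. A further 2352 genes (14.8%) stayed level, that is, were not called and had a 95% confidence interval within 0.5 of 0 on the log2 scale. Among protein-coding genes 21.3% were higher and 21.6% lower.

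**Figure D1:**
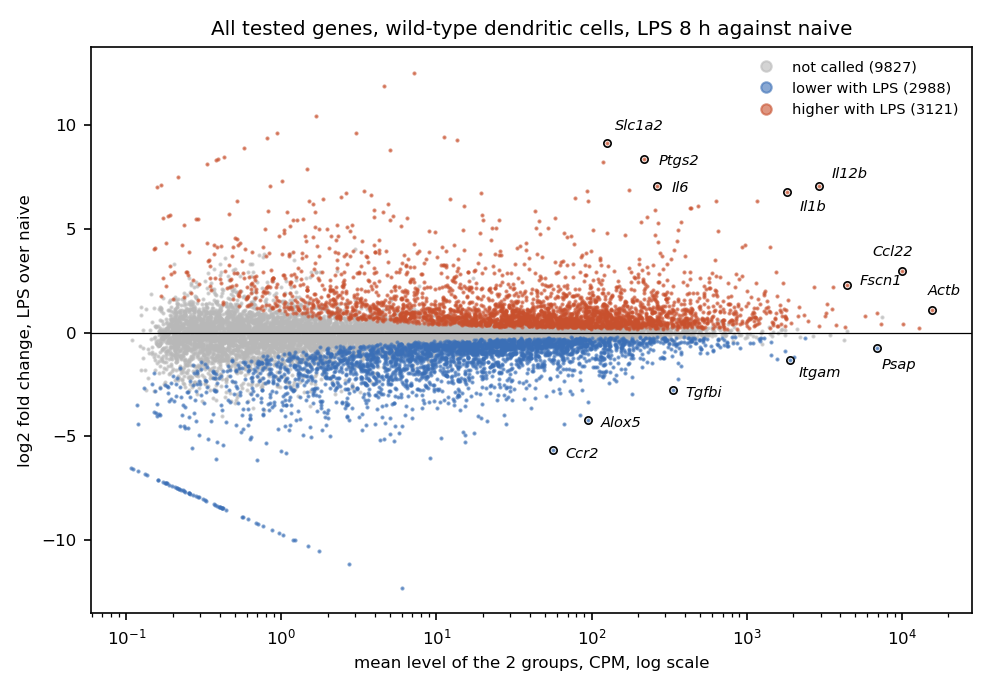
Each point is 1 of the 15936 tested genes, with the mean of the 2 group levels in CPM on a log axis and the log2 fold change of LPS over naive on the y axis. Of them 3121 (orange) were called higher and 2988 (blue) lower, and the straight lines of points at the far left are genes with 0 counts in 1 group, whose fold change depends on the prior count.

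Genes were ranked among those called with no overlap between groups, and clone, predicted and mitochondrial names were left out. The largest gain in CPM was in Ccl22, a chemokine that attracts regulatory and helper T cells. It measured 2122, 2318 and 2275 CPM in naive and 18440, 18410 and 16440 CPM in LPS libraries (log2 fold change 2.99, SE 0.07). Next came genes of the actin skeleton and of cytokine output: Actb, cytoplasmic actin, went from 9957 ± 616 to 21440 ± 1458 CPM (SD, n = 3 each), and Fscn1, which bundles actin in the dendrites of mature cells, from 1504 ± 105 to 7337 ± 574 CPM. Helz2, Lsp1, Ccl5, Cst3 and Lcp1 were also among the 10 largest gains, with log2 fold changes of 0.83 (Cst3, a cysteine protease inhibitor) to 2.23 (Ccl5). For each of these genes the 3 LPS libraries lay above the 3 naive ones, which the ranking required.

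In the same ranking the largest loss was in Psap, the precursor of lysosomal saposins. It measured 8904, 8219 and 8932 CPM in naive and 4895, 4266 and 6682 CPM in LPS libraries (log2 fold change -0.72, SE 0.16). Itgam, the integrin CD11b, measured 2747, 2541 and 2881 CPM and then 927, 846 and 1463 CPM (-1.34, SE 0.20). Ccl6, Laptm5, Fxyd5, Tgfbi, Rcbtb2 and Map4k4 fell as well, by 0.75 (Map4k4) to 2.78 (Tgfbi, a secreted matrix protein) on the log2 scale. Tnfrsf9 was also among the largest losses, with a difference of group means of -425 CPM. Lyz2, lysozyme of myeloid cells, read 2092, 1892 and 1867 CPM in naive and 663, 610 and 1513 CPM in LPS libraries, a log2 fold change of -1.07 that became -1.61 without LPS library 3 and was not called when any of the other 5 libraries was left out (edgeR adjusted p = 0.0854 to 0.11). Among genes so selected and at 20 CPM or more in at least 1 group, the largest loss by fold change was in Ccr2. Pald1 and Nlrp1b followed (-5.24 and -5.09). Then came Cacna2d2, Nrep, Arhgap15, Matk, Ablim1 and Chn2, which fell by 4.26 (Chn2) to 4.92 (Cacna2d2) on the log2 scale.

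**Figure D2:**
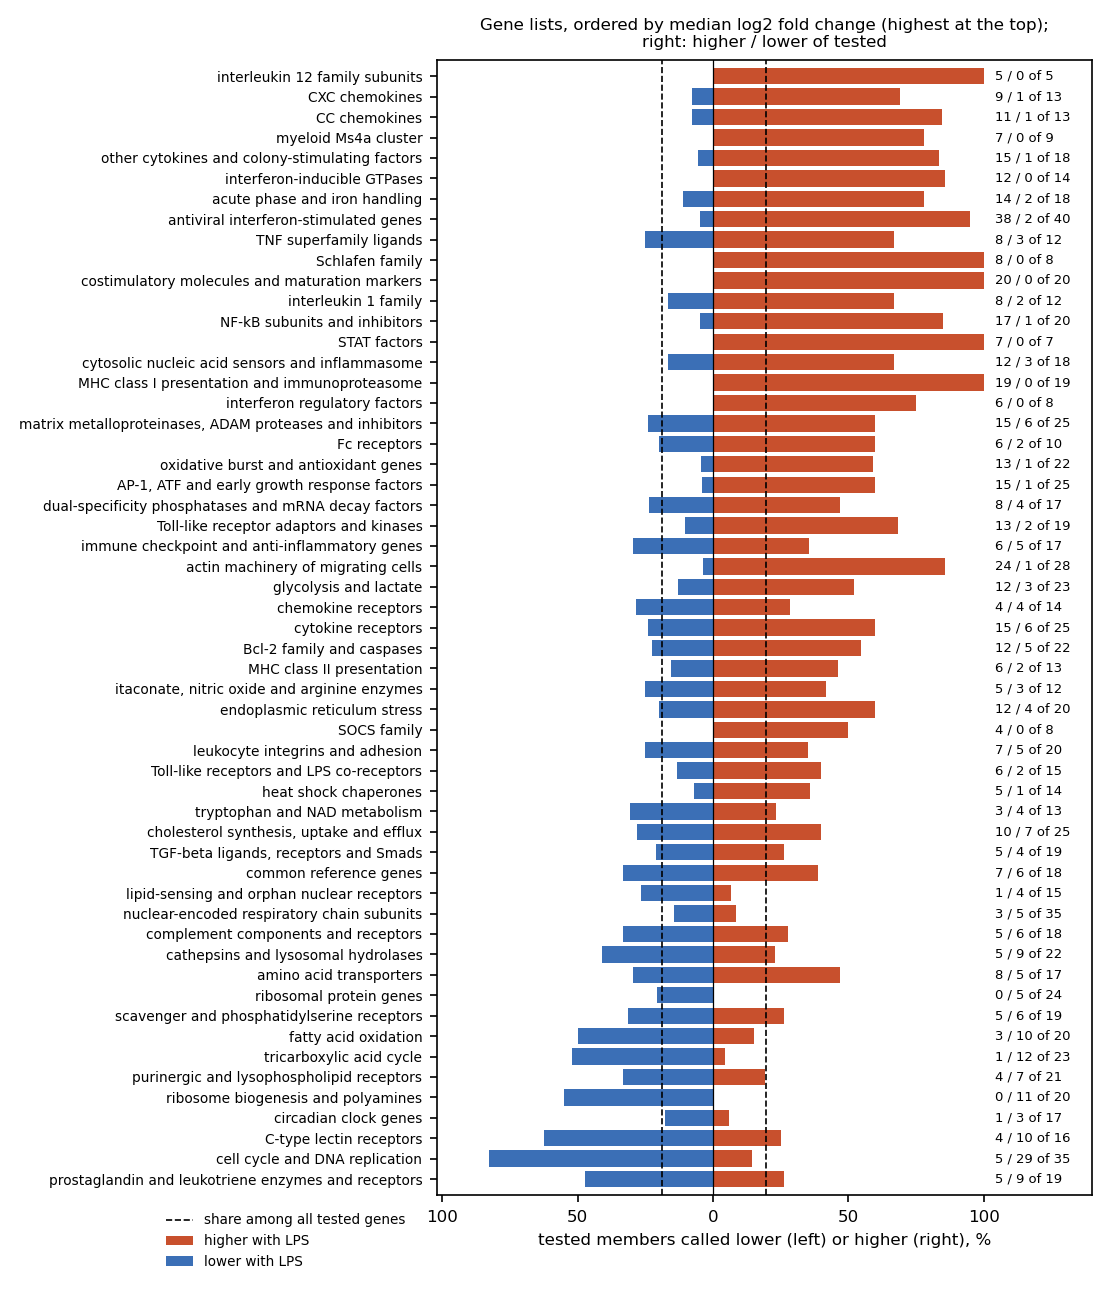
For each of 55 gene lists, bars give the share of tested members called higher (right, orange) and lower (left, blue) with LPS, in percent, with the numbers at the right edge. Dashed lines mark the shares among all tested genes, 19.6% higher and 18.8% lower. All tested members were higher for costimulatory molecules, interleukin 12 subunits, MHC class I genes, STATs and Schlafen genes, and cell cycle genes were mostly lower.

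The receptors that sense LPS moved in different directions. Tlr4, the LPS receptor itself, measured 44.0, 39.6 and 36.4 CPM in naive and 14.1, 19.3 and 17.2 CPM in LPS libraries (log2 fold change -1.25, SE 0.14). Cd14, which hands LPS to the receptor, measured 38.4, 35.5 and 50.1 CPM and then 465, 417 and 710 CPM (3.68, SE 0.24). All LPS libraries lay below all naive ones for Tlr4 and above them for Cd14. Ly96, which encodes MD-2, was not called (log2 fold change 0.44, edgeR adjusted p = 0.068), and it passed without LPS library 3 (0.53, adjusted p = 0.0477).

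Of 15 tested Toll-like and related receptors 6 were higher and 2 lower, and their median of 0.28 turned to -0.11 without composition factors. Tlr1 and Tlr2, which together sense bacterial lipopeptides, rose (2.92 and 1.39), as did Tlr3, a receptor for double-stranded RNA (1.77). Tlr8 was lower (-1.60). The endosomal receptors Tlr7 and Tlr9 were not called, and Tlr9 measured 10.4 to 12.6 CPM in naive and 10.4 to 12.3 CPM in LPS libraries.

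Downstream of the receptors, 13 of 19 adaptors and kinases were higher and 2 lower, with a median of 0.59 (0.20 without composition factors). Myd88 went from 73.5 ± 5.97 to 149 ± 16.5 CPM (SD, n = 3 each). Ripk2, a kinase shared with the NOD receptors, rose from 35.9 ± 4.95 to 163 ± 10.4 CPM (2.19, SE 0.12), and the interferon-directing kinases Ikbke and Tbk1 rose by 1.96 and 1.11. Irak3, a kinase-dead member of the IRAK family known as a brake on this pathway, rose from 33.8 ± 5.53 to 116 ± 7.25 CPM. Irak1, a kinase that transmits the signal, was lower (-0.66).

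Among 18 sensors of nucleic acids and inflammasome genes, 12 were higher and 3 lower (median 1.03). The RNA sensors Ddx58, Ifih1 and Dhx58, which encode RIG-I, MDA5 and LGP2, rose by 2.28, 2.43 and 2.88. Mavs, the adaptor through which they signal, was lower (-1.01, 32.9 ± 6.83 to 16.3 ± 2.63 CPM). Casp4, which encodes caspase-11, the cytosolic LPS sensor, measured 36.3, 34.6 and 31.8 CPM and then 205, 217 and 177 CPM (2.54, SE 0.10). Nlrp3 rose (1.59) while Pycard, the adaptor ASC, was lower (-0.68). Nlrp1b fell the most but varied widely among naive libraries, with 14.4, 38.0 and 9.70 CPM, against 0.677, 0.794 and 0.301 CPM with LPS.

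Of 20 NF-kB subunits and inhibitors, 17 were higher and 1 lower (median 1.17, 0.78 without composition factors). Nfkbiz, which encodes an atypical nuclear inhibitor protein needed for a set of secondary response genes, measured 19.6, 15.7 and 20.4 CPM in naive and 442, 529 and 505 CPM in LPS libraries (4.73, SE 0.14). Tnfaip3, the ubiquitin-editing inhibitor A20, rose from 99.8 ± 12.7 to 758 ± 31.2 CPM (2.93), and Nfkbia, the inhibitor IkB-alpha, measured 125, 137 and 145 CPM and then 515, 511 and 514 CPM (1.92, SE 0.07). The subunits Nfkb1 and Nfkb2 rose by 0.68 and 1.17. The lower gene was Map3k14, the kinase NIK of the non-canonical branch (-0.60).

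Interferon regulatory factors and STATs were higher without a lower member: 6 of 8 and 7 of 7. Without composition factors 5 of these regulatory factors were higher and 3 lower, and 5 STATs were higher and none lower. Irf7, which amplifies interferon output, measured 160, 110 and 191 CPM and then 2895, 2265 and 2912 CPM (4.13, SE 0.22). Irf8 and Irf4, both needed for dendritic cell subsets, went from 1037 ± 61.6 to 2240 ± 19.6 CPM and from 167 ± 22.6 to 324 ± 15 CPM. Irf3, which is activated by phosphorylation, was not called (-0.24, adjusted p = 0.056 by edgeR and 0.0437 by DESeq2). Stat5a rose the most of the STATs (2.15, 211 ± 18.9 to 939 ± 48 CPM), and Stat2 rose by 1.78.

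Of 25 AP-1, ATF and early response factors, 10 were higher and 5 lower without composition factors, and 15 higher and 1 lower with them. Atf3 and Batf rose by 2.50 and 2.70. The lower one was Egr2 (-0.82). Among negative regulators, Socs3 rose from 12.9 ± 1.33 to 125 ± 18.8 CPM (3.28, SE 0.14) and Zc3h12a, the RNase Regnase-1 that degrades cytokine mRNAs, from 13 ± 2.27 to 81.7 ± 7.55 CPM (2.65). Of the 8 SOCS genes 4 were higher and none lower, and the median of 0.30 was -0.09 without composition factors. Zfp36l2, an mRNA decay factor, fell from 34.1 ± 11.9 to 5.51 ± 0.378 CPM (-2.63).

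The promoters of genes in these groups were searched for 4 short motifs in the 250 bases before the RefSeq start (build GRCm38.p6): GGGNNTTTC, as in NF-kB sites, GAAANNGAA, as in interferon response elements, TGACTCA, as in AP-1 sites, and TTCNNNGAA, as in STAT sites. Both strands were searched, and matches may overlap. Of the tested genes 10364 had an entry. The source lists 32851 promoters of 27025 genes, and a gene was counted where any of its promoters held a match. The shares below are therefore of genes, and genes with more promoters had more room for a match. The sequences of Isg15 and Gbp2, from the antiviral genes and the interferon-inducible GTPases, and of Nfkbia and Cxcl2, from the NF-kB inhibitors and the CXC chemokines, are shown 5′ to 3′ in the direction of the gene, with motif matches in capitals.
Isg15: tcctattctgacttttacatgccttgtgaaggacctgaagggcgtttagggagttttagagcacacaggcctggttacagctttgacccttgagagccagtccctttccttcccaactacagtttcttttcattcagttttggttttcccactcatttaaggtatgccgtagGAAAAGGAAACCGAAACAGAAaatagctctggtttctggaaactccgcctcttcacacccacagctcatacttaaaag
Gbp2: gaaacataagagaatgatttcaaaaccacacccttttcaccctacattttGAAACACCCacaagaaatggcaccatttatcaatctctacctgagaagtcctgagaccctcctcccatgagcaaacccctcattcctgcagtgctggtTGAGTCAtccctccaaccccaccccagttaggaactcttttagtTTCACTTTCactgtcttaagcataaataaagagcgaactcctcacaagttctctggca
Nfkbia: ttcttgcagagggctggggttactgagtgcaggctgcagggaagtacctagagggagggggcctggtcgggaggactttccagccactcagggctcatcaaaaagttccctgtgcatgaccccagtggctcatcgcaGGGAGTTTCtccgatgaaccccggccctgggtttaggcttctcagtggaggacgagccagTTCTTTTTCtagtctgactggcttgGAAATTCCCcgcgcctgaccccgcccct
Cxcl2: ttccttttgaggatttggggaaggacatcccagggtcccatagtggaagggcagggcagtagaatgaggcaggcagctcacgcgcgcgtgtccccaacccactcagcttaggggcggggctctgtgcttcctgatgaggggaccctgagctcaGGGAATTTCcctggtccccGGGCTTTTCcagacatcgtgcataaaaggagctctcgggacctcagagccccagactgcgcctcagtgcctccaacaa
The Isg15 window (chr4:156200819-156201068, minus strand) holds 3 overlapping matches to GAAANNGAA, which begin 78, 72 and 66 bases before the start (positions -78, -72 and -66). The Gbp2 window (chr3:142620413-142620662, plus strand) holds GGGNNTTTC at -200, TGACTCA at -102 and GAAANNGAA at -58, all on the other strand. The Nfkbia window (chr12:55492648-55492897, minus strand) holds GGGNNTTTC at -113 and -28 and GAAANNGAA at -53. The Cxcl2 window (chr5:90903649-90903898, plus strand) holds GGGNNTTTC at -97 and -78. A match is a run of letters and not a measured binding site.

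GAAANNGAA was found for 8.18% of all 27025 genes with a promoter and for 7.81% of the tested ones. It was found for 15.6% (137 of 881) of genes at least 2-fold higher and 7.37% (83 of 1126) of genes at least 2-fold lower. At 16-fold or more it was in 24% (25 of 104). It was present for 13 of 32 genes of the antiviral list (40.6%), 8 of 8 interferon-inducible GTPases and 1 of 29 genes of the cell cycle list (3.45%). GGGNNTTTC was found for 4.35% of all genes with a promoter and 4.45% of the tested ones. Its share was 5.45% of genes at least 2-fold higher and 5.33% of those at least 2-fold lower. It was found for 6 of 16 genes of the NF-kB list (37.5%) and 4 of 10 CXC chemokines (40%), against none of 32 of the antiviral list. TGACTCA was found for 5.16% of all genes with a promoter and 4.21% of the tested ones. Its share was 7.38% of genes at least 2-fold higher and 4.09% of those at least 2-fold lower. For TTCNNNGAA these shares were 8.13%, 7.34%, 10.1% and 7.64%. Promoters of Il12b, Il1b, Tnf, Ptgs2 and Acod1 held no match to any of the 4 in this window. These shares are descriptions with no test.

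Every subunit of the interleukin 12 family that was tested rose. These cytokines are dimers that share chains: Il12b pairs with Il12a to make IL-12 and with Il23a to make IL-23, and Ebi3 pairs with Il27 to make IL-27. Il12b measured 44.2, 46.6 and 39.2 CPM in naive and 5573, 5401 and 6459 CPM in LPS libraries (7.07, SE 0.12, adjusted p = 3.8e-07). Il12a was near 0 in naive libraries (0.0297, 0 and 0.0566 CPM) and measured 21.2, 21.9 and 23.8 CPM with LPS. Il23a went from at most 0.0446 CPM to 10.4, 9.59 and 10.0 CPM. Il27 rose by 4.92, and Ebi3 rose from 18.6 ± 0.576 to 209 ± 4.45 CPM. The LPS libraries lay close together for all 5 subunits and far above the naive ones.

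In the interleukin 1 family 8 of 12 genes were higher and 2 lower. Il1b measured 28.1, 31.1 and 40.2 CPM and then 3381, 3246 and 4194 CPM (6.77, SE 0.19), and Il1a 15.3, 15.4 and 14.8 CPM and then 1306, 1129 and 1339 CPM (6.37, SE 0.10). The inhibitors of the family moved unequally: Il1rn, the secreted receptor antagonist, rose from 211 ± 20.7 to 1497 ± 186 CPM, Il18bp, which binds IL-18, rose by 2.16, and Il1r2, the decoy receptor, was lower (-1.31).

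Of 12 tested TNF superfamily ligands 8 were higher and 3 lower. Tnf measured 11.2, 10.1 and 18.5 CPM and then 567, 472 and 543 CPM (5.31, SE 0.26). Tnfsf15, a costimulator of T cells also known as TL1A, rose from 2.46 ± 0.662 to 114 ± 7.73 CPM (5.53), and Cd70 and Tnfsf4, the ligands of CD27 and OX40, rose by 4.25 and 2.67. The B cell survival factor Tnfsf13, known as APRIL, fell from 47.9 ± 7.64 to 12 ± 3.68 CPM and Ltb, lymphotoxin beta, fell by 2.22.

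Of 18 other cytokines and growth factors 15 were higher and 1, Il16, was lower (-1.62). Il6 measured 3.64, 3.36 and 4.57 CPM and then 457, 523 and 606 CPM (7.09, SE 0.18). Csf3, which encodes G-CSF, had 0 counts in all naive libraries and 11.5, 14 and 17.2 CPM with LPS, at least 943-fold higher if the naive group as a whole is given 3 counts. Il10, the anti-inflammatory cytokine, went from at most 0.0819 CPM to 4.82, 3.68 and 6.96 CPM. Inhba, the activin A subunit, rose from 5.3 ± 1.91 to 133 ± 28.4 CPM (4.64). Ifnb1 stayed low at 8 h: it measured 0, 0.0656 and 0 CPM in naive and 0.244, 0.397 and 0.663 CPM in LPS libraries (4.24, SE 1.13, edgeR adjusted p = 0.022), and it was not called without LPS library 2 or 3 or naive library 1 or 4 (adjusted p = 0.0585 to 0.0816).

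**Figure D3:**
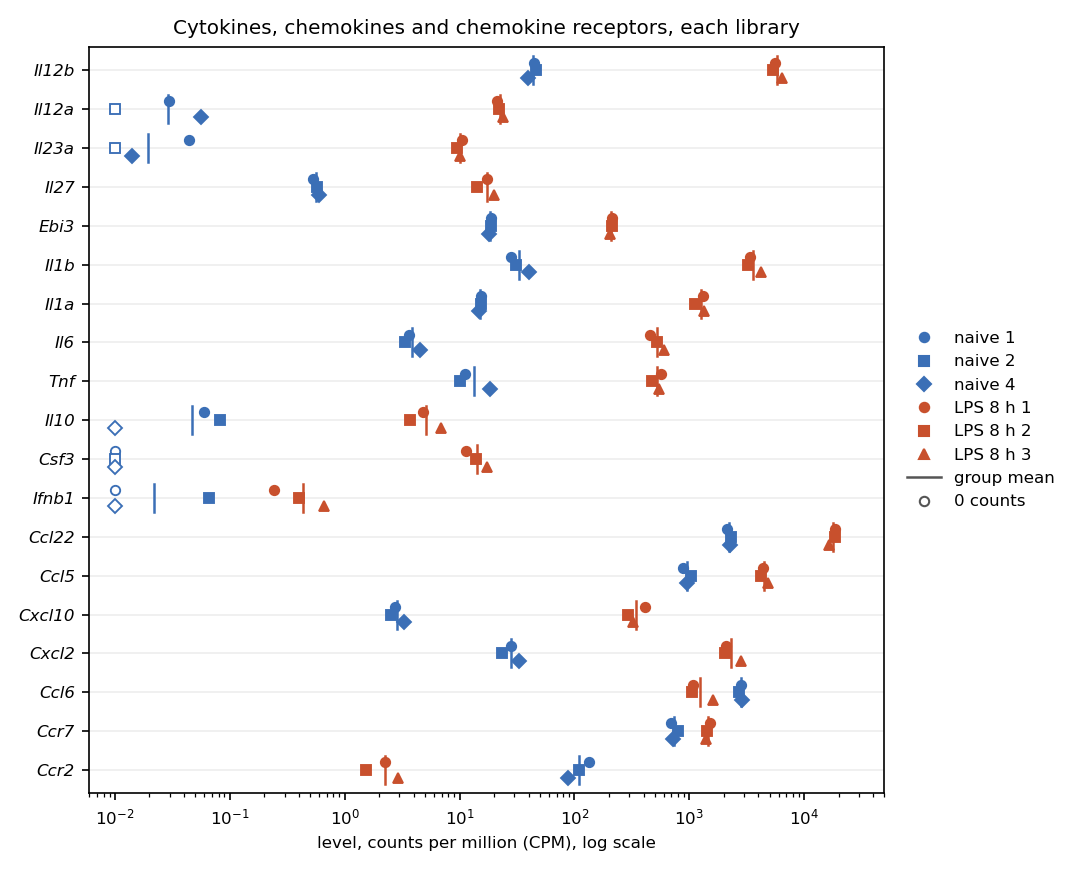
Levels in CPM on a log axis of cytokines, chemokines and chemokine receptors in each of the 6 libraries, naive in blue and LPS in orange, with vertical bars at group means and open symbols for 0 counts. Il12b went from 39.2 to 46.6 CPM in naive to 5401 to 6459 CPM in LPS libraries, and Ccl6 and Ccr2 are the 2 genes shown that fell.

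Chemokines that recruit neutrophils and monocytes rose together with those that attract T cells. Of 13 tested CC chemokines 11 were higher and 1 lower (median 3.86), and of 13 CXC and related chemokines 9 were higher and 1 lower (median 4.91). Cxcl2, a ligand of the neutrophil receptor CXCR2 whose promoter is printed above, measured 28.0, 23.3 and 32.9 CPM and then 2081, 2062 and 2828 CPM (6.37, SE 0.21). Cxcl1 rose by 6.00 and Cxcl3 by 4.91. Cxcl10, an interferon-induced ligand of CXCR3, measured 2.75, 2.52 and 3.30 CPM and then 412, 295 and 324 CPM (6.91, SE 0.19). Ccl3, Ccl4 and Ccl7 rose by 5.33, 4.79 and 5.39. Ccl6 was the lower CC chemokine, at 2801, 2723 and 2873 CPM and then 1081, 1051 and 1602 CPM (-1.17, SE 0.16).

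Chemokine receptors divided evenly, with 4 higher and 4 lower of 14 tested. Ccr2, the receptor that brings monocytes out of the marrow, measured 134, 110 and 88.4 CPM in naive and 2.25, 1.54 and 2.92 CPM in LPS libraries (-5.65, SE 0.27). Ccr7, the receptor for migration to lymph nodes, measured 700, 791 and 720 CPM and then 1530, 1420 and 1404 CPM (0.98, SE 0.07). Ccr2 is also one of the 6 monocyte markers, and the summed level of the other 5, 49.2 to 52.3 CPM in naive libraries, was 58.2 to 88.2 CPM in LPS libraries. Ccrl2, a non-signalling receptor that presents chemerin, rose by 3.98 and Ccr4 by 3.95. Cxcr4 fell from 89 ± 5.62 to 19.3 ± 2.23 CPM (-2.21).

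Cytokine receptors were higher for 15 and lower for 6 of 25, a split that became 9 and 9 without composition factors. Il15ra and Il2ra rose by 2.08 and 1.92, and Il15, which is presented in trans on IL-15 receptor alpha, rose by 2.17. Tnfrsf1b, the second TNF receptor, rose from 126 ± 5.8 to 454 ± 48 CPM (1.85). Both chains of the TGF-beta receptor were lower, Tgfbr2 by 1.52 and Tgfbr1 by 1.31 on the log2 scale, and so was Ifngr1 (-1.45). The receptors for IL-6 fell while their ligand rose: Il6st, the shared chain gp130, went from 47.8 ± 1.68 to 20.6 ± 0.714 CPM (-1.22) and Il6ra from 6.31 ± 1.76 to 1.47 ± 0.523 CPM (-2.10).

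Nearly all antiviral genes rose: 38 of 40 were higher and 2 lower (median 2.29). Isg15, a ubiquitin-like modifier, measured 10.1, 9.42 and 10.1 CPM in naive and 425, 390 and 406 CPM in LPS libraries (5.37, SE 0.08, adjusted p = 2.1e-07). Rsad2, the antiviral enzyme viperin, rose by 6.12, Ifit2 by 5.04 and Phf11d by 3.33. Samhd1, which depletes nucleotides, rose by 0.95 from 2233 ± 141 CPM. Both lower genes were of the Ifitm family: Ifitm1 measured 413, 483 and 478 CPM and then 257, 309 and 268 CPM (-0.72), and Ifitm6 fell by 2.14.

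The interferon-inducible GTPases, which attack the vacuoles of intracellular microbes, were higher for 12 of 14 with none lower. Gbp2, whose promoter is printed above, measured 224, 256 and 250 CPM and then 1730, 1431 and 1725 CPM (2.74, SE 0.10). Irgm1 and Igtp rose by 2.46 and 2.32. All 8 Schlafen genes were higher, from 1.09 for Slfn3 to 3.67 for Slfn4, which measured 13.5, 7.54 and 15.9 CPM and then 157, 142 and 173 CPM.

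All 19 tested genes of class I antigen presentation were called higher (median 0.96, 0.57 without composition factors). H2-K1, a class I heavy chain, went from 2322 ± 144 to 4060 ± 493 CPM (0.81), and Tapbp, tapasin, and Nlrc5, the transactivator of class I genes, rose by 1.80 each. Tap1, the peptide transporter, measured 355, 347 and 373 CPM and then 1039, 968 and 1132 CPM (1.54, SE 0.08). Psmb10 of the immunoproteasome rose by 1.56. Reads of the closely related class I genes may have been shared out among them, so single values of the H2-Q genes are uncertain.

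Of 13 genes of class II presentation 6 were higher and 2 lower, with a median of 0.40 that was 0.01 without composition factors. Ciita, the class II transactivator, measured 105, 132 and 138 CPM and then 386, 406 and 376 CPM (1.64, SE 0.11), and H2-Ab1 912, 1135 and 1172 CPM and then 2170, 2321 and 2730 CPM (1.17, SE 0.12). Cd74, the invariant chain, rose by 0.40 and by 0.01 without composition factors. The lower ones act on antigen in the endosome: Ifi30, a thiol reductase, fell from 161 ± 24.4 to 65 ± 19.3 CPM (-1.31) and H2-DMa, part of the peptide exchanger, fell by 0.46.

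All 20 costimulatory and maturation genes were called higher (median 1.91), and 19 of them also without composition factors. Cd40, through which helper T cells act on dendritic cells, measured 92.5, 90.5 and 115 CPM and then 1916, 1666 and 2004 CPM (4.23, SE 0.13). Cd86 went from 348 ± 7.79 to 936 ± 73.9 CPM (1.43) and Cd80 from 209 ± 8 to 549 ± 30.4 CPM (1.39). Cd200, Slamf7 and Marcksl1 rose by 2.95, 1.93 and 2.24. Among checkpoint genes Lgals9, galectin-9, rose by 2.46 and Cd274, which encodes PD-L1, by 1.75, while Vsir, which encodes VISTA, and the adenosine-forming enzymes Nt5e and Entpd1 fell by 1.62, 4.04 and 1.31.

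Of 16 C-type lectin receptors 10 were lower and 4 higher (median -0.96). Clec10a, a galactose-binding lectin, measured 149, 191 and 175 CPM in naive and 15.6, 12.7 and 22.6 CPM in LPS libraries (-3.35, SE 0.22), and Mrc1, the mannose receptor, 51.6, 42.6 and 38.6 CPM and then 4.36, 4.28 and 5.58 CPM (-3.23, SE 0.17). Clec4a2 fell by 2.32. Clec4e, the receptor Mincle for mycobacterial cord factor, went the other way, with 11.8, 10.2 and 14.4 CPM and then 296, 253 and 404 CPM (4.71, SE 0.22), and Clec4d, its partner, and Ly75, DEC-205, both rose by 1.16.

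Scavenger and phosphatidylserine receptors were mixed, with 5 higher and 6 lower of 19. Marco rose from 12.1 ± 1.95 to 161 ± 27.4 CPM (3.73) and Axl, a receptor for dead cells, from 713 ± 51.3 to 1611 ± 90.4 CPM (1.18). Tyrobp, the adaptor DAP12, and Scarb1 fell by 1.07 and 1.47. Of 22 cathepsins and lysosomal enzymes 9 were lower and 5 higher, and 12 and 2 without composition factors. Gusb and Hexa fell by 1.19 and 0.80, and Ctsz rose by 1.07. The macrophage markers, some of which are scavenger and Fc receptors, rose in sum over the same libraries as given above, but without Cd14 the groups overlapped. The part of macrophages in these values was not tested.

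LPS library 3 stood apart in some phagocyte genes, which were looked at after their values were seen, but not only in these. It was also the highest LPS library for Slc1a2 (214, 143 and 392 CPM) and Ms4a6b (59.4, 35.6 and 93.3 CPM), which rose with LPS. Trem2, a lipid receptor, measured 138, 116 and 147 CPM in naive and 31.9, 21.2 and 81.6 CPM in LPS libraries. Mgl2, a lectin like Clec10a, measured 281, 343 and 347 CPM and then 24.8, 27.6 and 75.3 CPM, and Ctsl 221, 218 and 241 CPM and then 197, 177 and 425 CPM. Trem2 was called lower (-1.58, edgeR adjusted p = 0.0292) but not without LPS library 1 or any 1 naive library (adjusted p = 0.0613 to 0.0926). In Trem2 and Mgl2 library 3 was the highest LPS library and still below the naive ones, and in Ctsl it lay above all others. Of 5931 genes with at least 20 CPM in the LPS group, 83 differed more than 2-fold between LPS libraries, against 14 of 6030 in the naive group. On a principal component analysis the second component (12.8% of the variance) placed LPS libraries 1, 2 and 3 at -56.6, -7.3 and 62.0. Without LPS library 3 there were 2985 genes called higher and 2922 lower, and 5329 of the 6109 calls were kept.

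**Figure D4:**
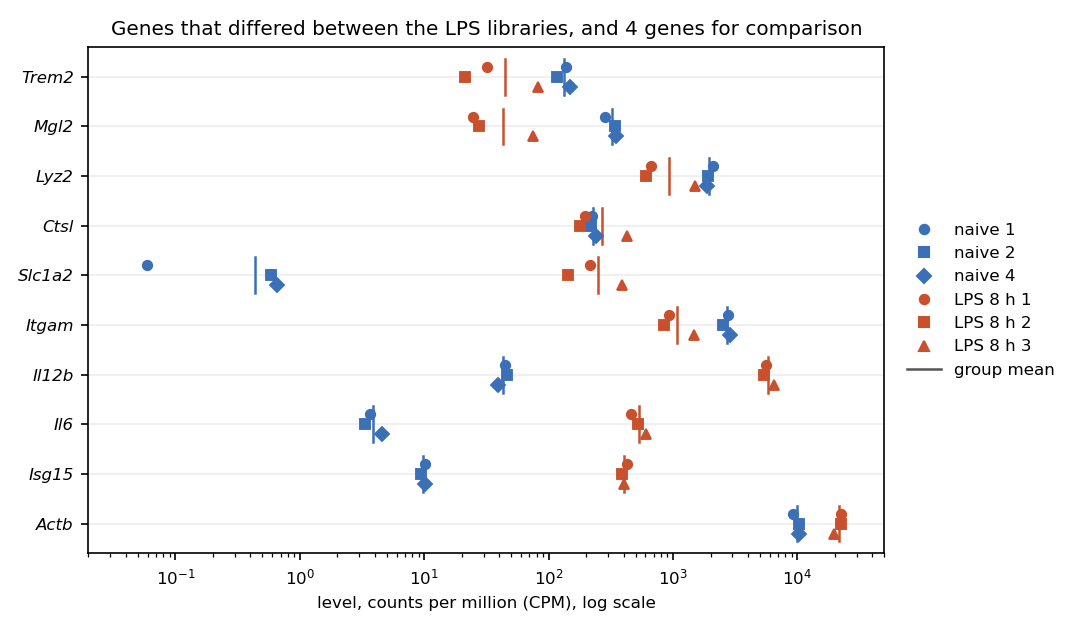
Levels in CPM on a log axis of 6 genes that differed between LPS libraries (Trem2, Mgl2, Lyz2, Ctsl, Slc1a2 and Itgam) and of 4 other genes, in each library. LPS library 3 (orange triangles) is the highest LPS library for each of the first 6, and the LPS libraries lie close together for Isg15 and Actb.

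Eicosanoid genes showed the lowest median of all lists (-1.42), with 9 lower and 5 higher of 19. Eicosanoids are lipid mediators made from arachidonic acid by cyclooxygenases, which give prostaglandins and thromboxane, or by 5-lipoxygenase, which gives leukotrienes. Ptgs2, the inducible cyclooxygenase COX-2, measured 1.14, 1.57 and 1.19 CPM in naive and 370, 403 and 531 CPM in LPS libraries (8.39, SE 0.22). Ptgs1, the constitutive COX-1, measured 155, 157 and 162 CPM and then 6.77, 8.20 and 15.5 CPM (-3.96, SE 0.30). The 2 cyclooxygenase genes thus moved in opposite directions, with no overlap between groups for either.

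Ptges, the inducible prostaglandin E synthase, rose from 1.43 ± 0.467 to 85.3 ± 15.7 CPM (5.89), and the PGE2 receptors Ptger4 and Ptger2 rose by 0.93 and 1.25. Tbxas1, thromboxane synthase, measured 158, 156 and 142 CPM and then 19.0, 14.1 and 34.5 CPM (-2.76, SE 0.31). Alox5, the lipoxygenase that starts leukotriene synthesis, measured 168, 178 and 194 CPM and then 8.18, 13 and 7.72 CPM (-4.22, SE 0.21), and its activating protein Alox5ap, the leukotriene A4 hydrolase Lta4h and the leukotriene B4 receptor Ltb4r1 fell by 2.43, 1.46 and 2.74.

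**Figure D5:**
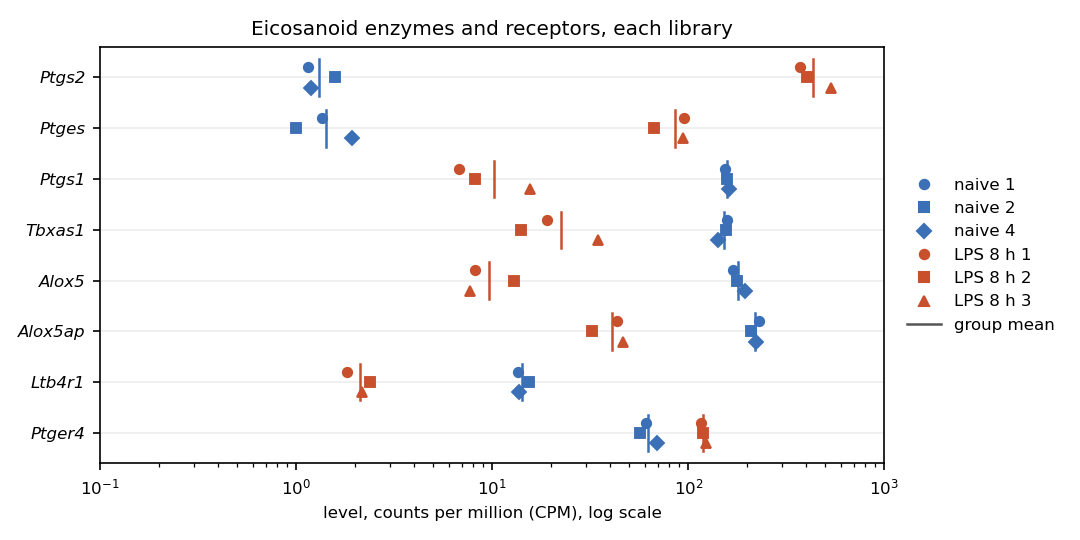
Levels in CPM on a log axis of prostaglandin genes (Ptgs2, Ptges, Ptgs1, Tbxas1 and Ptger4) and leukotriene genes (Alox5, Alox5ap and Ltb4r1) in each library, naive in blue and LPS in orange, with bars at group means. Ptgs2, Ptges and Ptger4 were higher with LPS and the other 5 genes lower, with no overlap between groups for any of them.

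Of 12 enzymes of itaconate, nitric oxide and arginine 5 were higher and 3 lower. Nos2, the inducible nitric oxide synthase, measured 1.41, 0.459 and 0.481 CPM and then 243, 184 and 285 CPM (8.23, SE 0.43). Acod1, which makes itaconate from a tricarboxylic acid cycle intermediate, measured 21.7, 18.4 and 28.2 CPM and then 703, 598 and 810 CPM (4.95, SE 0.20). Slc7a2, an arginine importer, rose from 99.7 ± 25.7 to 1769 ± 574 CPM (4.15), and Gch1, which makes the cofactor of nitric oxide synthase, rose by 2.10. Arg1, the competing arginase, stayed under 1 CPM in all 6 libraries and was not called, and Arg2 rose by 1.62. Slc1a2, a glutamate transporter known from astrocytes, measured 0.0595, 0.590 and 0.651 CPM and then 214, 143 and 392 CPM (9.17, SE 0.67).

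Of 18 acute phase and iron genes 14 were higher and 2 lower (median 2.31). Lcn2, which binds the iron carriers of bacteria, measured 11.7, 12.3 and 14.8 CPM and then 903, 807 and 834 CPM (6.04, SE 0.12). Saa3 rose by 5.59 and Cp, the ferroxidase ceruloplasmin, by 3.05. Tfrc, the transferrin receptor, fell from 33.7 ± 2.71 to 10.7 ± 0.484 CPM (-1.65), and Fth1, ferritin heavy chain, rose from 2203 ± 116 to 4923 ± 539 CPM (1.16).

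Of 22 oxidative burst and antioxidant genes 13 were higher and 1 lower, and 12 and 5 without composition factors. Sod2, the mitochondrial superoxide dismutase, went from 41.9 ± 1.35 to 319 ± 37.6 CPM (2.93), while Sod1 was not called (0.29, adjusted p = 0.26). Prdx5, a peroxiredoxin, and Cybb, the catalytic subunit of the phagocyte oxidase, rose by 1.91 and 1.57. Among proteases and inhibitors Mmp13 rose from 8.33 ± 2.49 to 505 ± 132 CPM (5.92), and Serpinb2, an inhibitor of plasminogen activators, rose by 4.42. Plau, a plasminogen activator, was lower (-1.96).

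Of 23 genes of glycolysis and lactate 12 were higher and 3 lower, but 7 and 9 without composition factors (medians 0.44 and 0.05). The 3 largest rises were in Hk2 and Hk3, hexokinases (2.13 and 1.62), and in Slc2a6, a hexose transporter (1.90). Pkm and Gpi1 were lower (-0.36 and -0.80).

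Of 23 tricarboxylic acid cycle genes 12 were lower and 1 higher (median -0.41, and -0.79 without composition factors). Idh2, the mitochondrial isocitrate dehydrogenase, measured 47.5, 50.7 and 40.9 CPM and then 9.18, 8.84 and 5.97 CPM (-2.53, SE 0.19). Idh1 and Fh1, fumarase, fell by 1.27 and 1.08. Cs, citrate synthase, was the higher one (0.56, SE 0.08), and it was not called without composition factors. The subunits of succinate dehydrogenase, Sdha to Sdhd, were not called, with Sdha at 143 to 159 CPM in naive and 142 to 158 CPM in LPS libraries.

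Fatty acid oxidation went the same way, with 10 lower and 3 higher of 20, the largest called falls above 5 CPM being in Hadh (-1.87) and Acaa2 (-1.65). Of 35 nuclear-encoded subunits of the respiratory chain 27 were not called (median -0.07), with 5 lower and 3 higher. Without composition factors 26 of them were called lower. Cholesterol genes were mixed (10 higher, 7 lower of 25, and 2 and 10 without composition factors). Ch25h, which makes 25-hydroxycholesterol, rose by 3.02, and Dhcr7, the last enzyme of cholesterol synthesis, fell by 1.92.

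Of 22 Bcl-2 family and caspase genes 12 were higher and 5 lower, and 7 and 7 without composition factors. Bcl2l1, which encodes Bcl-xL, measured 81.6, 79.7 and 90.5 CPM and then 466, 498 and 402 CPM (2.44, SE 0.10), and Cflar, the caspase-8 inhibitor cFLIP, rose by 2.37. Mlkl, the executor of necroptosis, rose from 18.1 ± 1.04 to 118 ± 6.99 CPM (2.69), while Ripk3, the kinase that activates it, fell from 26.1 ± 2.54 to 12.9 ± 1.76 CPM (-1.02). The proapoptotic Bmf fell by 0.92 and Bak1 rose by 0.67.

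The actin list was higher for 24 of 28 and lower for 1, Coro1a (-0.41). Most of these values were small (median 0.48), and without composition factors 9 were higher and 5 lower. Beside Actb and Fscn1 the genes with the largest rises were Marcksl1 (2.24) and Lcp1 (1.36), an actin bundler of leukocytes. Among integrins, Itgb7 and Itgam fell (-2.67 and -1.34), and Itga5, Itgav and Itgal rose (2.13, 1.84 and 1.77), and the median of the list turned from 0.29 to -0.10 without composition factors.

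The Ms4a genes, a cluster of membrane proteins of myeloid cells, rose: 7 of 9 tested were higher and none lower (median 3.66). Ms4a4c measured 2.32, 2.93 and 3.82 CPM and then 97.3, 63.6 and 144 CPM (5.07, SE 0.36), and Ms4a6d 55.8, 38.9 and 50.9 CPM and then 290, 250 and 506 CPM (2.84, SE 0.29). LPS library 3 was the highest and library 2 the lowest for both, well above every naive library. Reads of these related genes may be shared among them.

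Genes of proliferation and of ribosome building were lower. Of 35 cell cycle genes 29 were lower and 5 higher (median -1.20). Top2a measured 120, 101 and 98.5 CPM and then 12.3, 19.3 and 17.1 CPM (-2.71, SE 0.18), and Ccna2, cyclin A2, fell by 3.06. The 5 higher genes were Ccnd2, Cdk6, Cdkn1a, Cdkn1b and Tyms. Of these Ccnd2, cyclin D2, measured 121, 118 and 129 CPM and then 710, 681 and 591 CPM (2.43, SE 0.09), and Cdkn1a, the inhibitor p21, rose by 0.94. Myc fell from 24 ± 4.53 to 3.68 ± 1.77 CPM (-2.69), and of its list of 20 ribosome biogenesis and polyamine genes 11 were lower and none higher. Of 24 ribosomal protein genes 19 were not called, 5 were lower and none higher (median -0.22). Without composition factors 18 were lower (median -0.61), so their direction and size depend on the scaling.

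Of 18 common reference genes 7 were higher, 6 lower and 5 not called. Tbp, a general transcription factor, measured 58.1, 66.8 and 64.1 CPM and then 58.6, 67.4 and 61.0 CPM, and like Sdha it was not called but was lower without composition factors (-0.40 each). B2m and Actb rose by 0.82 and 1.11, and Tfrc and Gusb fell by 1.65 and 1.19 on the log2 scale. Gapdh, 1 of the 7 called higher, had only 2.26 to 7.42 CPM, a low value for a gene with many processed copies in the genome. Its change is uncertain.

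Outside protein-coding genes, 69 of 490 antisense genes were higher (14.1%) and 41 lower (8.37%), and 12 of 75 lincRNAs were higher (16%) and 9 lower (12%). These shares lay below those of all tested genes, 19.6% higher and 18.8% lower. Il1bos, which overlaps Il1b, measured 1.28, 1.31 and 2.25 CPM and then 171, 176 and 210 CPM (6.84, SE 0.24). No source used here says whether counting used strand, and reads of Il1bos and Il1b cannot be told apart. Dhx58os, which overlaps Dhx58, rose by 2.89 with the same limit. U90926, a non-coding or short coding gene, was near 0 in naive libraries (0.0892, 0.0328 and 0 CPM) and measured 22.5, 21.9 and 37.3 CPM with LPS.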

How the data were processed

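Deposited values were raw read counts per Ensembl gene, whole numbers made by the authors, and no normalization had been applied. Bowtie 0.0.9v, TopHat 1.3.3, SAMtools, bedtools, DESeq and the build mm9 are named in the submitters' processing notes without roles. Per the labels' protocols total RNA was extracted with TRI reagent. A gene missing from a library was taken as 0. No source used here states the annotation release or whether counting used strand. Gene names were matched by identifier to GENCODE M21 (20839 of 22678 genes with counts), and promoter sequences are from RefSeq (GRCm38.p6), so no coordinate is on mm9.

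The 6 libraries were fitted together in edgeR 4.0.16 (R 4.3.3) with TMM factors, its expression filter (15936 genes kept) and the robust quasi-likelihood F test, with Benjamini-Hochberg adjustment over all genes tested and a threshold of 0.05. CPM values are scaled by the TMM factors. SE was the log2 fold change divided by the square root of F. On simulated counts for 15353 genes the same steps found 55% of 100 genes changed 2-fold and 86% of 100 changed 4-fold, with 10 false calls. Total counts were 38998746 to 62282841 per library. Libraries of a group differed by far more than counting error (chi-square of 24.8 to 64.3 per gene between pairs, common biological coefficient of variation 0.249), so the spread between libraries limits the precision. Of counts from 1 to 200, 57.8 to 58.6% were even in each library. A gene with 0 counts in a group was given a floor of 3 counts over that group.

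The 55 lists (1048 members, 1028 with counts) and the comparison were chosen with earlier results of these data known, so counts over a list are descriptions. Named genes were the 10 largest changes each way at 20 CPM or more, the 10 largest gains and losses in CPM, up to 6 members of each list by p with any members against the list's direction, non-coding genes from 5 CPM, and a set of genes the response is known by. The largest changes, gains and losses and the non-coding genes were taken among called genes with no overlap between groups. For the changes, gains and losses, clone, predicted and mitochondrial names were left out (171 at 20 CPM or more). Outside this rule, Cd209a, Ly96, Tlr7, Tlr9, Myd88, Nfkb1, Irf3, Ifnb1, Rsad2, Phf11d, Samhd1, Slfn3, H2-K1, Cd74, Cd200, Hexa, Trem2, Mgl2, Ctsl, Ptgs1, Tbxas1, Sod1, Hk3, Sdha, Tbp, Hdc and Kit were named after their values were seen. Alternatives were RLE factors, no composition factors, no filter, DESeq2 1.42.0, limma 3.58.1 with voom weights, a fit of all 12 dendritic cell libraries, the replicate number as a block and leaving out each library.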

Additional observations from a re-analysis of the deposited data

How the results depend on the processing

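Without composition factors 1717 genes were higher and 6216 lower (873 and 2849 at 2-fold or more), and medians turned to -0.11 for Toll-like receptors, -0.093 for the SOCS family, -0.000394 for itaconate, nitric oxide and arginine enzymes, -0.27 for tryptophan and NAD metabolism, -0.0151 for endoplasmic reticulum stress, -0.13 for heat shock chaperones and -0.10 for integrins. Single genes that turned lower there were Ldha (-0.29), Irf5 (-0.19), Scarb2 (-0.0472), Cr1l (-0.0554), Cox7a2 (-0.14), Atp5a1 (-0.21), Cpt2 (-0.0259) and Ywhaz (-0.0797). The median of chemokine receptors was -0.35 with limma voom, -0.38 with the replicate block and -0.31 without LPS library 1, and that of amino acid transporters 0.25 with the block and 0.23 without LPS library 3 (-0.31 to 0.65 and -0.34 to 0.23 over the libraries left out). The cause was not tested. With the replicate block 1834 genes were lower and 1488 stayed level. Deviations of same-numbered libraries correlated at 0.037 (number 1) and 0.019 (number 2), and at -0.088 to 0.05 over all pairings. Only these numbers occur in both groups, so this cannot settle whether the numbers pair the samples. Leaving out 1 library at a time gave 2557 to 2985 genes higher, 2240 to 2922 lower, 1280 to 1362 higher and 1302 to 1660 lower at 2-fold or more, and 1825 to 2209 level. Of 463 genes compared, 463 kept direction and call with RLE factors, 457 with DESeq2, 458 with limma voom, 454 without the filter, 427 with 12 libraries, 414 with the block, 412 without composition factors and 433 to 446 with 1 library left out. Leaving out 1 library leaves 2 in its group, so a lost call can come from fewer samples alone.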

Other observations

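Complement genes were mixed, with 5 higher and 6 lower of 18 tested. Cfb, factor B of the alternative pathway, measured 488, 462 and 694 CPM in naive and 2611, 2068 and 4001 CPM in LPS libraries (log2 fold change 2.40, SE 0.27), and its neighbour C2 rose by the same 2.40. Reads of these adjacent genes could in part be shared. Of 10 Fc receptor genes tested 3 were higher and 3 lower without composition factors, and 6 higher and 2 lower with them (median 0.74). Fcgrt, the neonatal receptor that recycles IgG and 1 of the 2, measured 16.2, 16.3 and 16.7 CPM and then 2.27, 2.98 and 3.5 CPM (-2.49, SE 0.18). Pparg, a lipid-sensing nuclear receptor, measured 7.25, 7.56 and 6.84 CPM and then 1.60, 1.68 and 1.75 CPM (-2.11, SE 0.17). For Cfb and C2 all LPS libraries lay above the naive ones, and for Fcgrt and Pparg below them.

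Genes of NAD metabolism moved in different directions: Nampt, which salvages NAD, and Cd38, which consumes it, rose by 1.58 and 2.34, and Kmo of the kynurenine pathway fell by 1.72. Amino acid transporters divided as well. Slc7a8 rose from 9.42 ± 1.21 to 58 ± 16.1 CPM (SD, n = 3 each), and Slc43a2 measured 127, 124 and 129 CPM and then 19.1, 13.5 and 20.9 CPM (-2.83, SE 0.16). Hdc, which makes histamine, measured 1.31, 1.93 and 1.88 CPM and then 162, 146 and 159 CPM (6.51, SE 0.17). Hdc is one of the 8 mast cell and basophil markers. Kit, another of them, was lower with LPS (-1.41), and the 7 markers other than Hdc summed to 52.9 to 58.2 CPM in naive and 22.8 to 30.3 CPM in LPS libraries.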
